A study of Homo sapiens with 28 samples.

Results

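Long intergenic noncoding RNAs with a LINC symbol were followed in HT-1080 cells, a human fibrosarcoma line, after overnight exposure to a ferroptosis inducer, to fatty acids or to both. The 135 LINC RNAs described here are those with a mean raw count of 20 or more over the 28 libraries, out of 2147 LINC genes listed, 1116 with a count in any library and 60286 genes in all. The groups were 10 nM RSL3, 80 µM LA, 80 µM CLA18:2, RSL3+LA and RSL3+CLA18:2 at the same doses, 5 µM CLA18:3, and the vehicle DMSO, with 4 libraries in each. All groups are the same wild-type cell line, described as independent replicates, and every group was compared as bulk RNA. RSL3 inhibits GPX4, a selenoenzyme that detoxifies peroxidised membrane lipids. LA is linoleic acid, and CLA18:2 is its conjugated form, in which the double bonds alternate with single bonds instead of being separated by a methylene group. CLA18:3 is a conjugated acid with a further double bond, and its dose differs from that of the other acids.

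The symbol LINC followed by a number is given to a long RNA without a recognised protein product that lies mostly apart from coding genes, and it says nothing of what the RNA does. Such RNAs are usually spliced and polyadenylated like messenger RNAs, are expressed at lower levels, and can act on nearby genes, in the nucleus at large or in the cytoplasm, or can be by-products of an active enhancer or promoter. Ferroptosis is a form of cell death driven by the peroxidation of polyunsaturated lipids, which GPX4 restrains. The series compares how acids that peroxidise by different routes contribute to it.

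Library totals ran from 16226270 to 24286824 counts, and every one of the 135 RNAs entered the test with 16325 genes in all. The number of genes detected at a common total was 22322.7 ± 237.4 with RSL3, 22141.1 ± 589.8 with LA, 21775.7 ± 314.5 with CLA18:2, 21852.5 ± 713 with RSL3+LA, 20021.4 ± 1123 with RSL3+CLA18:2, 19369.9 ± 805 with CLA18:3 and 22747.8 ± 100.2 with DMSO (SD, n = 4 each). Counts on mitochondrially encoded messages made up 0.548 to 1.498% of the RSL3 libraries, 0.451 to 1.44% of the LA libraries, 0.312 to 1.48% of the CLA18:2 libraries, 1.46 to 1.93% of the RSL3+LA libraries, 0.263 to 1.68% of the RSL3+CLA18:2 libraries, 0.356 to 1.64% of the CLA18:3 libraries and 1.26 to 1.49% of the DMSO libraries. Of the marker lists, 10 of 10 mesenchymal genes and 5 of 10 epithelial genes passed the count filter, with summed levels of 12620 to 15470 and 554 to 904 CPM per library, where CPM are counts scaled to each library's normalised total. Blood markers summed to at most 1.15 CPM and endothelial markers to 1.25 to 2.88 CPM. What part these library differences have in the LINC results was not tested, apart from the fit with the mitochondrial share reported with the alternatives.

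LINC RNAs were a small part of each library, and a single RNA led them. Together they made up 1153 to 1283 CPM. LINC01029 (chr18:77971294-77993722, minus strand in GRCh38, GENCODE 29) averaged 291 CPM and held 23.8% of the summed mean level, and the 10 most abundant held 49.2%. Per kilobase of exon it stood at 139 CPM, 5.21 times the 26.7 CPM per kilobase of LINC01116. LINC01605 at 22.3, LINC01711 at 20.5, LINC00165 at 18.5, LINC00839 at 18.0, LINC02087 at 13.3, LINC00674 at 9.68, LINC00565 at 8.10 and LINC02506 at 8.06 CPM per kilobase followed. Without regard to length, LINC01029 was followed by LINC01116, LINC00839, LINC02693, LINC00205, LINC01605, LINC00963, LINC00667, LINC01234 and LINC01128, at 47.6 down to 21.3 CPM. The median was 3.23 CPM, or 1.44 CPM per kilobase, and 84 of the 135 lay under 5 CPM, so for most of them the counts limit which changes can be seen.

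The chosen RNAs did not owe their place to a single group in most cases. A mean count of 20 or more was kept by 131 of them whichever group was left out, and 121 reached it within CLA18:2 and 129 within DMSO. Without DMSO, LINC01135, LINC00942 and LINC01424 fell under it, with mean counts of 19.7, 19.1 and 19.7, so a level below DMSO is favoured by the choice of these 3. They make up 2 of the RNAs counted as lower with CLA18:2, 2 of those with RSL3+CLA18:2 and 1 of those with CLA18:3. Just inside the limit lay LINC00942, LINC01135 and LINC01465, with mean counts of 20.3, 20.5 and 20.8. Just outside it lay LINC01470, LINC01881 and LINC00327, with mean counts of 19.6, 19.6 and 19.3.

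GENCODE placed 110 of the 135 in the class lincRNA, 10 as processed transcripts, 5 as antisense, 2 at bidirectional promoters, 7 as transcribed pseudogenes of either kind listed there and 1, LINC02693, as the coding gene C17orf51, while RefSeq lists all 135 as long noncoding. Their merged exons had a median length of 2618 bases, from 519 to 28876. Chromosomes 1, 10 and 18 carried 17, 12 and 9 of them. Exon bases were shared with another gene by 42, of which 17 shared 10% or more, and since the strand setting of the counting is not given in the sources used here, reads of such pairs cannot be told apart.

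The conjugated acids and their combination with RSL3 gave the most changes, while RSL3 alone gave none. In the test across the 7 groups 61 of the 135 passed an adjusted p of 0.05, or 45.2%, against 57.4% of all genes tested. CLA18:2 against DMSO changed 44, with 20 higher and 24 lower, which is 32.6% against 38.8% of all genes (20.1% higher and 18.6% lower). RSL3+CLA18:2 changed 40, with 14 higher and 26 lower (29.6% against 35.2%, with 18.6% higher and 16.6% lower), and CLA18:3 changed 33, with 20 higher and 13 lower (24.4% against 35.9%, with 19.1% higher and 16.7% lower). LA changed 12, with 2 higher and 10 lower (8.89% against 8.32%, with 4.91% higher and 3.41% lower), and RSL3+LA changed 12, with 3 higher and 9 lower (8.89% against 10.2%, with 5.43% higher and 4.81% lower). RSL3 changed 0, against 0.202% of all genes, with 3 RNAs at an unadjusted p under 0.05 and 0 by DESeq2. Fitting only the 2 groups compared called 19 with LA, or 14.1% against 16% of all genes tested in that fit, and 20 with RSL3+LA, or 14.8% against 15.9%. The share of LINC RNAs called was thus close to that among all genes with LA and RSL3+LA, and under it with CLA18:2, RSL3+CLA18:2 and CLA18:3. All these comparisons use the same 4 DMSO libraries, and p-values measure only the spread between these samples.

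**Figure D1:**
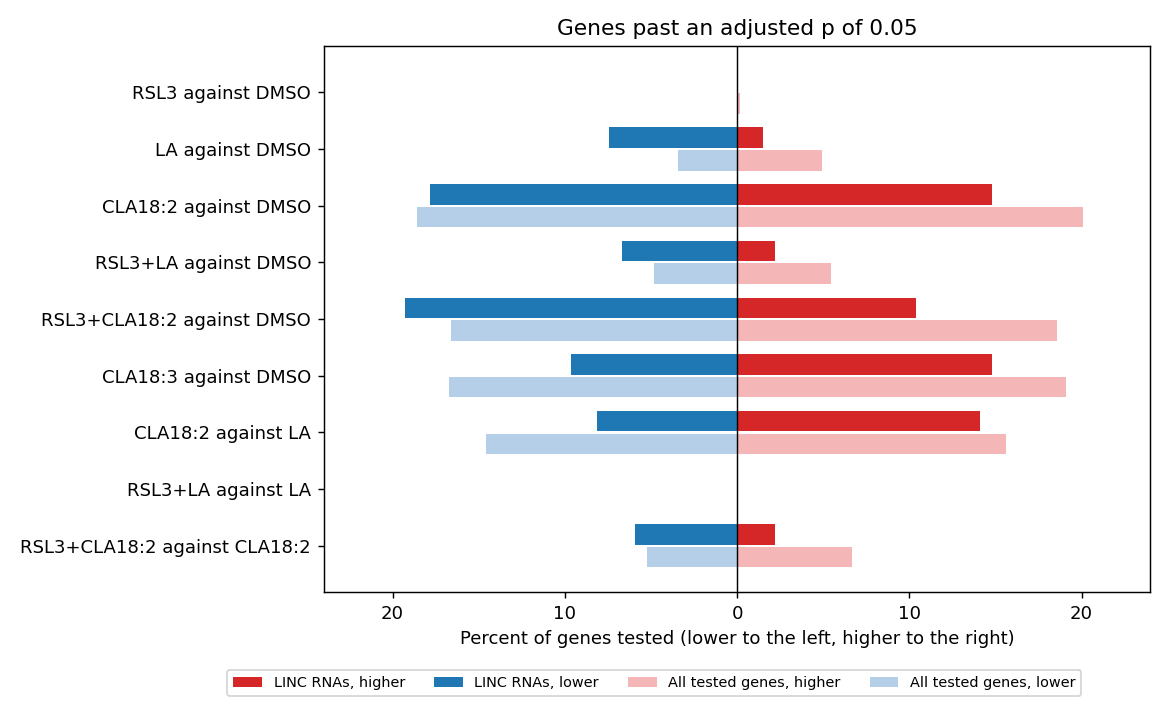
Percent of the 135 LINC RNAs (saturated bars) and of the 16325 genes tested (pale bars) past an adjusted p of 0.05, lower to the left and higher to the right, for 9 comparisons of 2 groups. LINC RNAs called lower with LA were 7.41% against 3.41% of all genes, and those called higher were 1.48% against 4.91%.

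Direction and size were also set beside all genes. With LA, 7.41% of the LINC RNAs were lower against 3.41% of all genes, and 1.48% were higher against 4.91%. With CLA18:2, 19 of the 44 changes were at least 2-fold, or 14.1% of the LINC RNAs against 5.27% of all genes, and with RSL3+CLA18:2 this held for 15, or 11.1% against 4.91%. With CLA18:3 it held for 6, or 4.44% against 3.79%, with LA for 1, or 0.741% against 0.343%, and with RSL3+LA for 2, or 1.48% against 0.594%. Between CLA18:2 and LA 7 differed by at least 2-fold, or 5.19% against 2.76%, and between RSL3+CLA18:2 and CLA18:2 0 did, against 0.564%. None did with RSL3 against DMSO or with RSL3+LA against LA, where all genes gave 0.0613% and 0.0184%. With LA alone the number called was 7 without LA replicate 4, against 12 with all libraries. The share of all genes called in that smaller fit is not given here. The LINC RNAs include many genes of low count, and levels were not matched between the lists. The median log2 change of the LINC RNAs with CLA18:2 was -0.05, against -0.02 for all genes, and their lowest and highest changes were -3.04 and 2.17. Libraries of the groups compared did not overlap for 53 LINC RNAs with CLA18:2, against 42% of all genes. They did not for 44 with RSL3+CLA18:2 (33.9%), 30 with CLA18:3 (31.7%), 22 with LA (18.1%) and 25 with RSL3+LA (18.7%). With RSL3 this held for 3, against 6.56%. RNAs named for a change were picked from called RNAs without overlap in that comparison. Non-overlap there was fixed by the choice and adds no support to the test.

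LINC00520 rose most with CLA18:2. This RNA (chr14:55781132-55796731, minus strand), known in endothelial cells as LEENE, an enhancer-derived RNA that raises nitric oxide synthase expression, had 12.8, 10.97, 14.3 and 16.98 CPM in the CLA18:2 libraries, against 3.68, 2.54, 3.61 and 2.29 CPM in the DMSO libraries. The RSL3+CLA18:2 libraries had 7.597, 8.41, 10.3 and 8.28 CPM and the CLA18:3 libraries 11.98, 13.9, 13.7 and 10.3 CPM. All 12 of these libraries lay above every DMSO library, and the RSL3+CLA18:2 libraries lay below every CLA18:2 library. The log2 change from DMSO was 2.17 ± 0.17 (adjusted p = 1.01e-12) with CLA18:2, 1.51 ± 0.17 (adjusted p = 8.55e-09) with RSL3+CLA18:2 and 2.03 ± 0.17 (adjusted p = 1.12e-11) with CLA18:3, where ± is the standard error throughout for log2 changes. With LA it was 0.07 ± 0.18 (adjusted p = 0.918) and with RSL3 it was 0.02 ± 0.19 (adjusted p = 0.998), with LA libraries at 2.69 to 3.95 CPM inside or beside the DMSO range. RSL3+CLA18:2 against CLA18:2 gave -0.66 ± 0.16 (adjusted p = 0.0034). In these bulk libraries, fewer cells that carry an RNA and less of it per cell cannot be told apart.

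LINC02864 (chr18:73151241-73264480, minus strand) had a larger level and a tighter spread. It had 30.5, 32.4, 30.9 and 26.6 CPM with CLA18:2, 25.7, 26.7, 25.8 and 22.6 CPM with RSL3+CLA18:2 and 19.999, 22.5, 23.6 and 21.6 CPM with CLA18:3, against 13.7, 13.3, 13.5 and 14.2 CPM with DMSO. Its groups did not overlap with DMSO in any of these comparisons, and its log2 changes were 1.14 ± 0.08 (adjusted p = 2.01e-13), 0.89 ± 0.08 (adjusted p = 1.59e-10) and 0.68 ± 0.08 (adjusted p = 6.03e-08). With LA the log2 difference was 0.04 ± 0.09 (adjusted p = 0.886), which did not pass the test. LINC01605 (chr8:37421341-37554183, minus strand), among the most abundant, had 48.05, 50.9, 44.8 and 49.7 CPM with CLA18:2, 41.1, 40.3, 43.7 and 37.1 CPM with RSL3+CLA18:2 and 37.9, 32.2, 40.3 and 40.02 CPM with CLA18:3, against 26.5, 27.1, 27.2 and 23.8 CPM with DMSO. It too kept every library of the conjugated acids above DMSO, with log2 changes of 0.89 ± 0.07 (adjusted p = 4.9e-12), 0.63 ± 0.07 (adjusted p = 1.74e-08) and 0.52 ± 0.07 (adjusted p = 8.5e-07). The LA and RSL3+LA libraries also lay above every DMSO library for LINC01605. Those log2 differences, 0.19 ± 0.07 (adjusted p = 0.136) and 0.14 ± 0.08 (adjusted p = 0.282), did not pass the test.

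**Figure D2:**
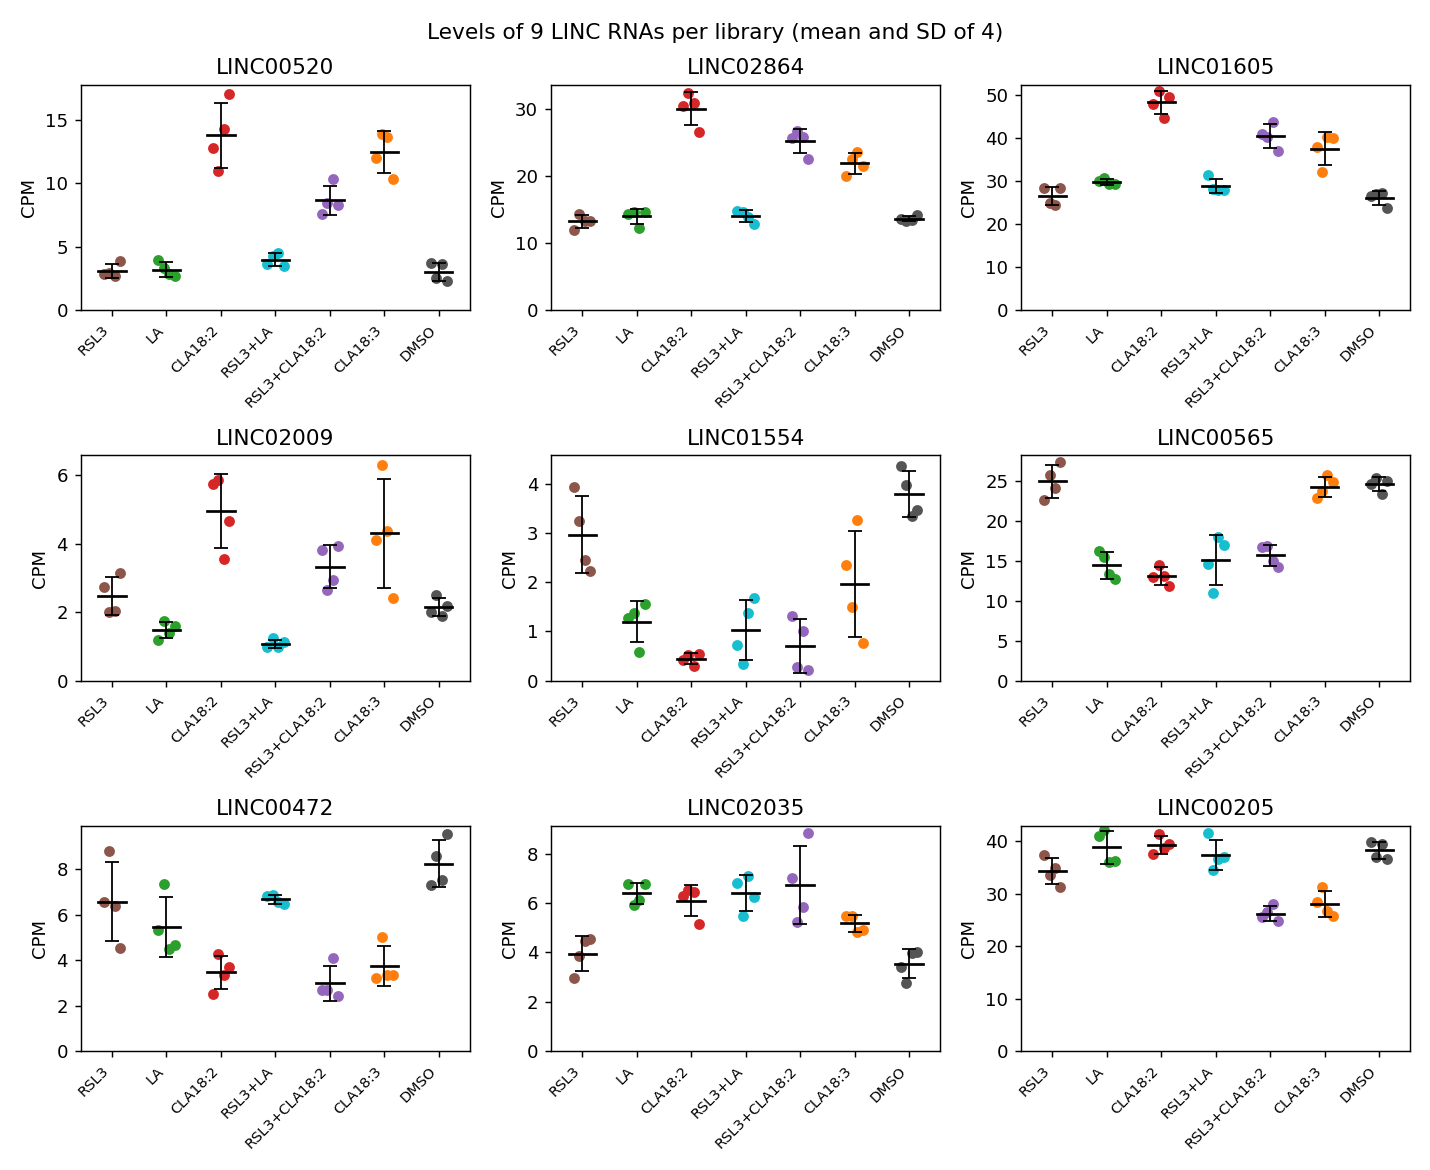
Level in CPM (linear axis from 0) of 9 LINC RNAs in each library, by group with DMSO at the right; points are the 4 libraries, bars the mean and SD. LINC00520, LINC02864 and LINC01605 are high in the 3 groups with a conjugated acid, LINC01554 and LINC00565 are low with LA and CLA18:2, and LINC00205 is low with RSL3+CLA18:2 and CLA18:3.

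Other RNAs that rose were expressed at low levels. LINC02009 (chr3:46416524-46423591, minus strand), which lies 3527 bases from the chemokine receptor-like gene CCRL2, had 5.73, 5.86, 3.56 and 4.66 CPM with CLA18:2 against 1.998, 2.499, 1.89 and 2.18 CPM with DMSO. No library overlapped, and the log2 change was 1.21 ± 0.24 (adjusted p = 7.09e-05). LINC01444 (chr18:14969001-14970468, minus strand) had 5.54, 5.295, 5.46 and 6.68 CPM with CLA18:2 against 1.998, 2.499, 1.93 and 2.23 CPM with DMSO, again without overlap, a log2 change of 1.40 ± 0.27 (adjusted p = 7.6e-05). LINC02604 (chr7:66902857-66906297, plus strand) had 3.92, 4.54, 4.05 and 3.9997 CPM with CLA18:2 against 1.52, 1.57, 1.63 and 2.68 CPM with DMSO, a log2 change of 1.16 ± 0.29 (adjusted p = 0.00143). Each CLA18:2 library was above each DMSO library, although DMSO replicate 4 stood apart from the other DMSO libraries. LINC01705 (chr1:222041705-222064763, minus strand) had 4.97, 7.47, 7.05 and 6.08 CPM with CLA18:2, 4.84, 7.95, 7.02 and 4.05 CPM with CLA18:3 and 3.05, 2.78, 3.61 and 3.68 CPM with DMSO. Every library of both acids was above DMSO, and the log2 changes were 0.96 ± 0.21 (adjusted p = 0.000404) and 0.86 ± 0.21 (adjusted p = 0.00169). With RSL3+CLA18:2 against DMSO, LINC01444, LINC02604 and LINC01705 were not called. Nor was a difference between RSL3+CLA18:2 and CLA18:2 called for any of them.

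LINC00888 (chr3:183447608-183456013, plus strand), a transcribed pseudogene in GENCODE, had 19.9, 19.3, 17.7 and 19.3 CPM with CLA18:2, 15.5, 15.6, 15.1 and 15.8 CPM with RSL3+CLA18:2, 15.8, 17.7, 16.8 and 15.6 CPM with CLA18:3 and 10.6, 11.4, 11.3 and 11.8 CPM with DMSO. All 3 treated groups lay above DMSO, and the log2 changes were 0.76 ± 0.09 (adjusted p = 6.43e-09), 0.46 ± 0.09 (adjusted p = 7.62e-05) and 0.55 ± 0.09 (adjusted p = 5.33e-06). LINC01094 (chr4:78645903-78682699, plus strand) had 2.01, 2.88, 2.51 and 2.25 CPM with CLA18:2, 2.71, 2.42, 2.47 and 2.12 CPM with RSL3+CLA18:2 and 1.42, 1.48, 0.645 and 0.893 CPM with DMSO. The treated libraries did not overlap DMSO, with log2 changes of 1.12 ± 0.36 (adjusted p = 0.0112) and 1.13 ± 0.35 (adjusted p = 0.0121). The change with CLA18:2 was not called without DMSO replicate 3 (adjusted p = 0.0551), nor that with RSL3+CLA18:2 without DMSO replicate 3 (adjusted p = 0.0592). LINC01011 (chr6:2987967-2991173, plus strand) had 2.13, 2.16, 1.97 and 1.62 CPM with RSL3+CLA18:2 and 0.578, 0.833, 1.25 and 0.781 CPM with DMSO, a log2 change of 1.18 ± 0.40 (adjusted p = 0.0208). The groups did not overlap, but the change was not called without DMSO replicates 1 or 4 (adjusted p = 0.051 to 0.0713). LINC01011 starts 20 bases from NQO2, a quinone reductase gene, and 10.4% of its exon bases are also NQO2 exon on the same strand, so its counts may include NQO2 reads.

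LINC01554 fell most. This RNA (chr5:95852232-95860133, plus strand) had 0.4299, 0.5201, 0.307 and 0.548 CPM with CLA18:2, 1.32, 0.269, 1.01 and 0.225 CPM with RSL3+CLA18:2, 1.28, 1.38, 0.5904 and 1.55 CPM with LA, 0.734, 0.346, 1.38 and 1.67 CPM with RSL3+LA and 4.36, 3.98, 3.35 and 3.46 CPM with DMSO. Every library of these 4 treatments lay below every DMSO library. The log2 changes were -3.04 ± 0.47 (adjusted p = 2.03e-06) with CLA18:2, -2.43 ± 0.44 (adjusted p = 3.96e-05) with RSL3+CLA18:2, -1.64 ± 0.42 (adjusted p = 0.00822) with LA and -1.87 ± 0.42 (adjusted p = 0.0024) with RSL3+LA. CLA18:3 gave 2.35, 1.502, 3.27 and 0.773 CPM and a log2 difference of -0.95 ± 0.40 (adjusted p = 0.0639), a wider spread that did not pass the test. RSL3 alone gave -0.35 ± 0.39 (adjusted p = 0.995).

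LINC01776 (chr1:98210747-98272658, plus strand) followed. It had 0.669, 0.946, 0.4904 and 1.31 CPM with CLA18:2, 1.09, 1.62, 1.603 and 1.31 CPM with RSL3+CLA18:2, 1.74, 2.16, 1.56 and 1.34 CPM with LA, 0.944, 2.02, 1.84 and 1.52 CPM with RSL3+LA, 3.13, 2.76, 2.56 and 2.87 CPM with CLA18:3 and 3.47, 2.73, 3.78 and 3.404 CPM with DMSO. The first 4 groups lay wholly below DMSO, while CLA18:3 overlapped it. The log2 changes were -1.96 ± 0.27 (adjusted p = 3.56e-07) with CLA18:2, -1.25 ± 0.26 (adjusted p = 0.000224) with RSL3+CLA18:2, -0.97 ± 0.25 (adjusted p = 0.0104) with LA and -1.08 ± 0.26 (adjusted p = 0.00381) with RSL3+LA. The change with LA was not called without LA replicate 4, or without the low-count filter (adjusted p = 0.0531 to 0.0546). MIR137HG, the host gene of microRNA 137, lies 160884 bases away on the same chromosome and changed by -1.05 (adjusted p = 0.000299) with CLA18:2 and by -1.004 ± 0.22 (adjusted p = 0.00259) with LA on the log2 scale. MIR137HG also changed with CLA18:3, by -0.62 (adjusted p = 0.0277), where LINC01776 differed by -0.24 (adjusted p = 0.489) and did not pass the test.

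LINC00452 (chr13:113888306-113923512, plus strand) and LINC00565 (chr13:113926514-113928844, minus strand) lie 3002 bases apart on opposite strands and fell together. LINC00565 had 13.04, 14.5, 13.1 and 11.8 CPM with CLA18:2, 16.2, 15.4, 13.4 and 12.8 CPM with LA, 22.9, 23.7, 25.7 and 24.8 CPM with CLA18:3 and 24.6, 25.4, 23.3 and 25.1 CPM with DMSO. CLA18:2 and LA lay below DMSO without overlap, whereas CLA18:3 overlapped it. Its log2 changes were -0.90 ± 0.11 (adjusted p = 1.5e-08) with CLA18:2, -0.77 ± 0.11 (adjusted p = 3.13e-06) with LA, -0.65 ± 0.11 (adjusted p = 7.47e-06) with RSL3+CLA18:2 and -0.70 ± 0.11 (adjusted p = 1.06e-05) with RSL3+LA, and -0.02 ± 0.10 (adjusted p = 0.921) with CLA18:3. LINC00452 had 5.21, 5.25, 6.62 and 4.77 CPM with CLA18:2, 7.38, 7.74, 7.19 and 7.01 CPM with LA and 12.5, 12.6, 11.1 and 13.1 CPM with DMSO, with no overlap. Its log2 changes were -1.18 ± 0.15 (adjusted p = 4.32e-08) with CLA18:2, -0.75 ± 0.14 (adjusted p = 0.000407) with LA, -1.15 ± 0.15 (adjusted p = 8.29e-08) with RSL3+CLA18:2 and -0.90 ± 0.14 (adjusted p = 2.87e-05) with RSL3+LA, and -0.34 ± 0.14 (adjusted p = 0.0575) with CLA18:3.

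Further RNAs fell with CLA18:2. LINC00472 (chr6:71344344-71420769, minus strand) had 2.53, 4.26, 3.37 and 3.73 CPM with CLA18:2, 2.71, 2.69, 4.12 and 2.43 CPM with RSL3+CLA18:2, 3.23, 5.04, 3.37 and 3.37 CPM with CLA18:3 and 7.31, 8.61, 7.52 and 9.54 CPM with DMSO. No library of these treatments reached the DMSO range, and the log2 changes were -1.25 ± 0.20 (adjusted p = 3.73e-06), -1.46 ± 0.20 (adjusted p = 4.09e-07) and -1.13 ± 0.20 (adjusted p = 2.19e-05). LINC00472 was also called lower with LA, at -0.59 ± 0.19 (adjusted p = 0.0497), with libraries that overlapped DMSO. With RSL3+LA its difference was -0.30 ± 0.19 (adjusted p = 0.396), which did not pass the test. LINC01186 (chrX:46325924-46327645, minus strand) had 1.099, 2.98, 1.84 and 2.79 CPM with CLA18:2, 3.18, 3.94, 2.36 and 1.996 CPM with LA and 4.89, 6.02, 5.16 and 4.91 CPM with DMSO. Both acids lay below DMSO, with log2 changes of -1.27 ± 0.26 (adjusted p = 0.000173) and -0.87 ± 0.25 (adjusted p = 0.0259). The change of LINC01186 with LA was not called without LA replicates 3 or 4 or DMSO replicates 2 or 3 (adjusted p = 0.0527 to 0.125). LINC01882 (chr18:12739490-12776137, minus strand) had 0.8597, 0.567, 0.613 and 0.712 CPM with CLA18:2, 0.636, 0.582, 1.36 and 0.728 CPM with CLA18:3 and 1.998, 1.805, 1.59 and 2.23 CPM with DMSO. Its libraries did not overlap DMSO, with log2 changes of -1.46 ± 0.41 (adjusted p = 0.00466) and -1.21 ± 0.40 (adjusted p = 0.0181), and the second was not called without CLA18:3 replicate 2 (adjusted p = 0.0523).

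**Figure D3:**
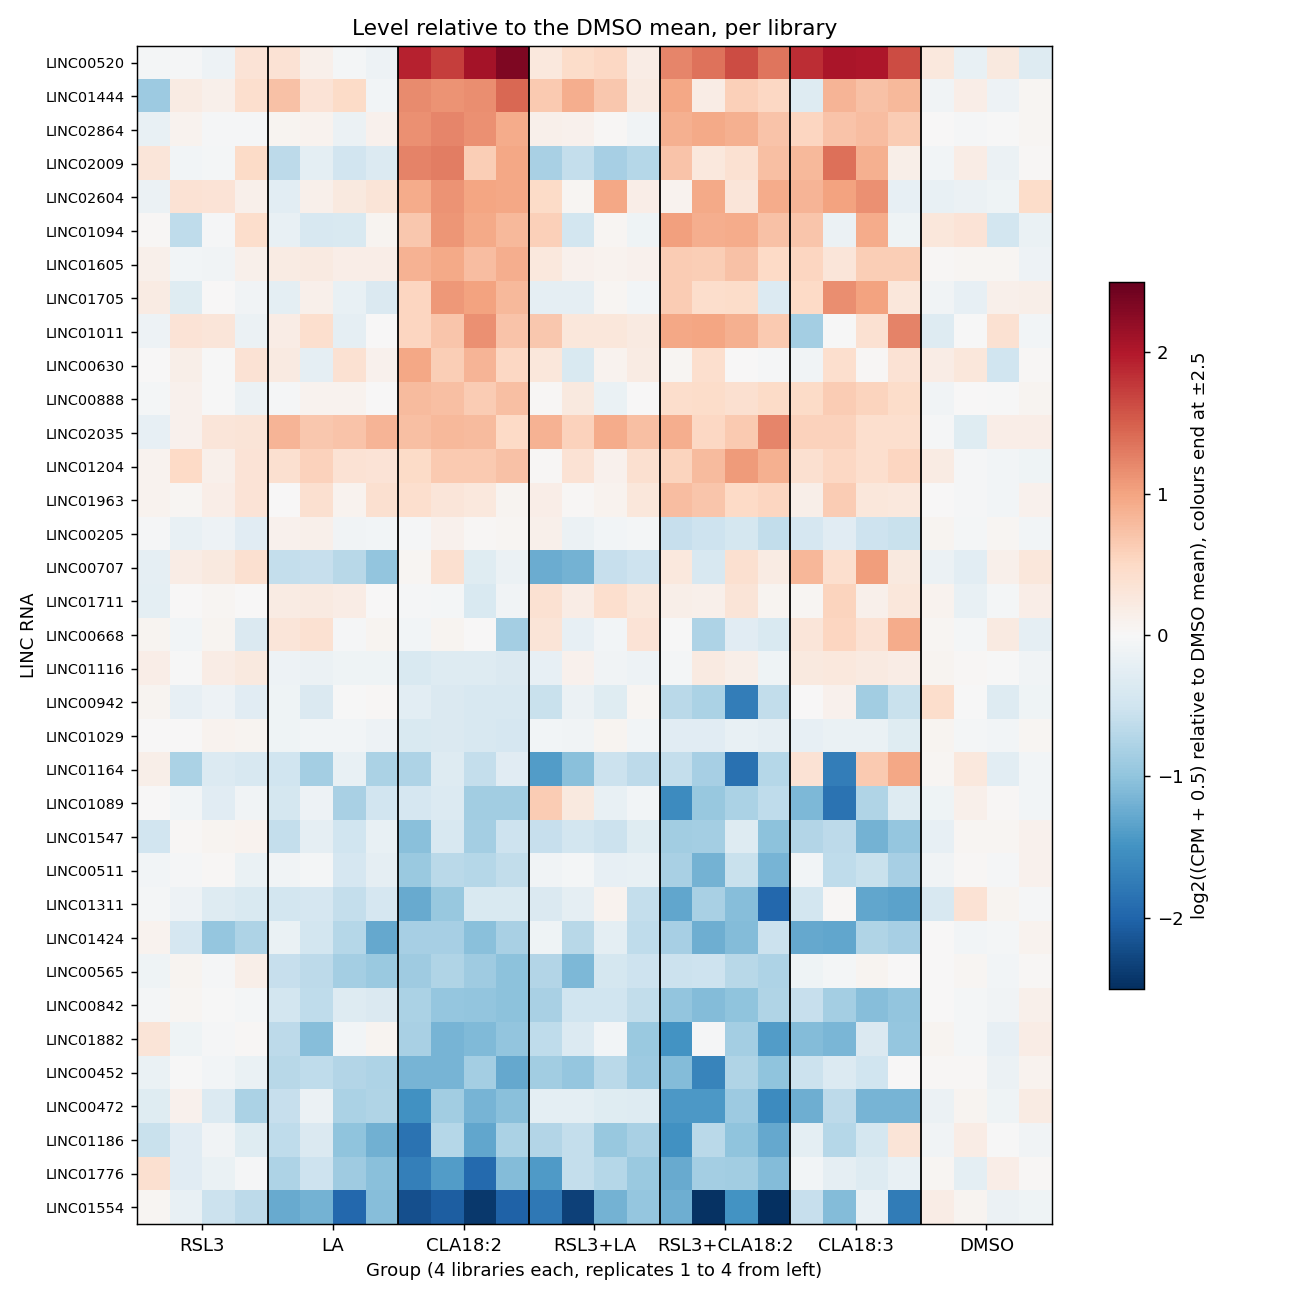
Level of the 35 LINC RNAs chosen by their changes in any comparison, as log2 of (CPM + 0.5) relative to the DMSO mean, in each of the 28 libraries; red is higher and blue lower, with colours ending at ±2.5, and rows ordered by the CLA18:2 mean. The top rows are red mainly under CLA18:2, RSL3+CLA18:2 and CLA18:3, and LINC01554 at the bottom is blue in all 16 libraries of LA, CLA18:2 and their combinations with RSL3.

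LINC02035 and LINC00842 changed with all 5 treatments that held a fatty acid. LINC02035 (chr3:122886941-122892416, plus strand) had 6.77, 5.93, 6.12 and 6.76 CPM with LA, 6.304, 6.52, 6.44 and 5.15 CPM with CLA18:2, 6.81, 5.48, 7.12 and 6.23 CPM with RSL3+LA, 7.02, 5.23, 5.86 and 8.82 CPM with RSL3+CLA18:2, 5.48, 5.48, 4.84 and 4.91 CPM with CLA18:3 and 3.42, 2.78, 3.997 and 4.02 CPM with DMSO. All 20 treated libraries were above the DMSO libraries. Its log2 changes were 0.85 ± 0.16 (adjusted p = 0.00043) with LA, 0.78 ± 0.16 (adjusted p = 0.000196) with CLA18:2, 0.85 ± 0.16 (adjusted p = 0.000328) with RSL3+LA, 0.93 ± 0.16 (adjusted p = 2.33e-05) with RSL3+CLA18:2 and 0.54 ± 0.16 (adjusted p = 0.0091) with CLA18:3, the last not called without DMSO replicate 2, or without the low-count filter (adjusted p = 0.0592 to 0.0634). LINC00842 (chr10:46398362-46453306, plus strand) had 11.99, 10.6, 13.3 and 12.8 CPM with LA, 9.41, 8.32, 8.21 and 7.94 CPM with CLA18:2, 9.28, 11.7, 11.6 and 10.7 CPM with RSL3+LA, 8.17, 7.598, 8.06 and 9.68 CPM with RSL3+CLA18:2, 11.002, 9.06, 7.73 and 8.19 CPM with CLA18:3 and 16.8, 16.2, 15.6 and 18.4 CPM with DMSO. All 20 treated libraries were below DMSO. Its log2 changes were -0.46 ± 0.11 (adjusted p = 0.00327) with LA, -0.98 ± 0.11 (adjusted p = 3.82e-09) with CLA18:2, -0.63 ± 0.11 (adjusted p = 6.62e-05) with RSL3+LA, -0.995 ± 0.11 (adjusted p = 3.88e-09) with RSL3+CLA18:2 and -0.89 ± 0.11 (adjusted p = 4.18e-08) with CLA18:3. With RSL3 alone the log2 differences were 0.16 ± 0.17 for LINC02035 and -0.01 ± 0.10 for LINC00842.

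LINC01204 (chrX:45505388-45630202, plus strand) had 8.69, 10.3, 12.5 and 11.1 CPM with RSL3+CLA18:2, 8.12, 9.27, 9.32 and 9.81 CPM with CLA18:2, 7.69, 8.78, 7.46 and 7.33 CPM with LA and 6.62, 5.599, 5.42 and 5.301 CPM with DMSO. These treated libraries did not overlap DMSO, and the log2 changes were 0.90 ± 0.13 (adjusted p = 7.91e-07), 0.67 ± 0.13 (adjusted p = 6.89e-05) and 0.45 ± 0.13 (adjusted p = 0.0242). CLA18:3 gave 0.50 ± 0.13 (adjusted p = 0.00259), also without overlap. RSL3+LA overlapped DMSO and did not pass the test, at 0.25 ± 0.13 (adjusted p = 0.29). The change with LA was not called without LA replicates 1 or 2 or DMSO replicates 2, 3 or 4, or without the low-count filter (adjusted p = 0.053 to 0.117). With RSL3 alone LINC01204 had the lowest adjusted p of the 135, at a log2 difference of 0.29 ± 0.13 (adjusted p = 0.765).

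RefSeq promoter windows of 300 bases (250 before and 50 after the start, GRCh38.p14) were available for 78 of the 135, and 5 motifs known from stress-responsive genes were looked for on both strands. The core of the antioxidant response element, TGACNNNGC, bound by NRF2, was in 16 windows, or 20.5%, against 13.3% of all 35116 windows and 14.4% of the 15976 windows of tested genes. The AP-1 motif TGANTCA was in 11, or 14.1%, against 7.71% of all windows and 5.65% of those of tested genes. The cyclic AMP response element TGACGTCA was in 2, or 2.56%, which is above the 1.85% of all windows and below the 2.75% of tested genes. The CHOP-ATF4 motif TGATGCAAT was in 1, or 1.28%, against 0.236% and 0.131%, and the E-box CACGTG in 4, or 5.13%, against 7.26% and 9.09%. A match of the response element core can overlap one of AP-1 or of the cyclic AMP element, which happened once, in LINC02709. Of RNAs higher with CLA18:2, 12 had a window, 3 with the response element core, 4 with AP-1, 1 with the cyclic AMP element and 3 with the E-box. Of those lower with CLA18:2, 12 had a window, 3 with the response element core and 0 with any of the others. A match describes these letters only and is not a shown binding site.

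Of the 78 windows, 49 held none of the 5 motifs. The windows of 6 RNAs that changed are given 5′ to 3′ on the RNA's own strand, with matches in capitals, to set RNAs that rose beside RNAs that fell. These 6 are examples, and their matches do not give the share among the RNAs that changed. LINC02009 (chr3:46423618-46423917, minus strand) rose with CLA18:2 and holds AP-1 175 bases and the E-box 87 bases before the start. LINC00630 (chrX:102768903-102769202, plus strand) had 6.59, 5.06, 6.01 and 4.66 CPM with CLA18:2 and 3.63, 3.89, 2.06 and 3.18 CPM with DMSO, with no overlap, a log2 change of 0.81 ± 0.21 (adjusted p = 0.00165), and holds the response element core on the other strand at 85 bases and the cyclic AMP element at 27 bases before it. LINC02604 (chr7:66903870-66904169, plus strand), which also rose, holds the core 17 bases after the RefSeq start. Windows follow RefSeq starts, and for LINC02009 and LINC02604 these differ from the end of the GENCODE span given above. LINC02035 (chr3:122886263-122886562, plus strand), which rose with every fatty acid, holds none of the motifs. LINC00472 (chr6:71420696-71420995, minus strand) and LINC00565 (chr13:113928942-113929241, minus strand), which fell, hold the core at 110 and 48 bases before the start.
LINC02009: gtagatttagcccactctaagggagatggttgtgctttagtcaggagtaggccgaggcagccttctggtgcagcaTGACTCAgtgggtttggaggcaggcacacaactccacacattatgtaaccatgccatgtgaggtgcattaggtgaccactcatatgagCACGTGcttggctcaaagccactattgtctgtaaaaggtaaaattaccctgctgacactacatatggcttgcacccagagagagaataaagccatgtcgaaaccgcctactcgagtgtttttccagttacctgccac
LINC00630: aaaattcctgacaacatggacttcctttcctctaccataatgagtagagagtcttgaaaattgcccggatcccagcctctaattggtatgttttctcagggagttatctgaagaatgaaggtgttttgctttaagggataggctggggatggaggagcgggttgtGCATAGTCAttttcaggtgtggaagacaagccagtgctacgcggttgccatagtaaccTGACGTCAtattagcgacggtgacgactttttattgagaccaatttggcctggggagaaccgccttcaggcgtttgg
LINC02604: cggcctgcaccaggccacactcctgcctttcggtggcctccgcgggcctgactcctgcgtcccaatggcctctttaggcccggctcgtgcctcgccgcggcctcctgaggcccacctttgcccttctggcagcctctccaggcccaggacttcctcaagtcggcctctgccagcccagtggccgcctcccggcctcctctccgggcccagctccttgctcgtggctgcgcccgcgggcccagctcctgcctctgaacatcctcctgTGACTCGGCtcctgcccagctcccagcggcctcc
LINC02035: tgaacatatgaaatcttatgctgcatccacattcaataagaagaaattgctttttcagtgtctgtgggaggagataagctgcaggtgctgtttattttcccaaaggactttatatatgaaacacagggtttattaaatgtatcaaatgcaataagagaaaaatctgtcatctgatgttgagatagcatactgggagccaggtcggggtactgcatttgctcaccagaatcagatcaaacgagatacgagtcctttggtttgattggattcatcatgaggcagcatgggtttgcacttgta
LINC00472: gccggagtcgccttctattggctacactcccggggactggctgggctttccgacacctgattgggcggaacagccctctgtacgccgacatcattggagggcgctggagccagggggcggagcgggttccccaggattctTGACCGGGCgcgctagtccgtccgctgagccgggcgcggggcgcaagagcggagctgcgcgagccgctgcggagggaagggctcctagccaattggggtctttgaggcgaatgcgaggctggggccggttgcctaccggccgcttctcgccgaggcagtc
LINC00565: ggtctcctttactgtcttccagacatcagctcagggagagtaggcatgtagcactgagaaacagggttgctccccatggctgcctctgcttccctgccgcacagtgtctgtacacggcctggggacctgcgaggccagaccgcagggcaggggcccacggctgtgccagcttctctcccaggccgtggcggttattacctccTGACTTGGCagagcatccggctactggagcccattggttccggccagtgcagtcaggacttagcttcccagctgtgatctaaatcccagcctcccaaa

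LA and CLA18:2 were given at the same dose, and this was the only pair of acids compared directly. Of the 135 RNAs, 30 differed, with 19 higher and 11 lower with CLA18:2, which is 22.2% against 30.2% of all genes (15.6% higher and 14.6% lower). LINC00520 was higher with CLA18:2 than with LA by 2.11 ± 0.17 (adjusted p = 3.38e-12) on the log2 scale, LINC02009 by 1.74 ± 0.24 (adjusted p = 5.28e-07), LINC01094 by 1.49 ± 0.36 (adjusted p = 0.00148), LINC01705 by 1.15 ± 0.22 (adjusted p = 6.54e-05) and LINC02864 by 1.10 ± 0.08 (adjusted p = 8.41e-13). The LA libraries held 1.18, 1.73, 1.395 and 1.59 CPM of LINC02009, 0.871, 0.692, 0.698 and 1.14 CPM of LINC01094 and 2.67, 3.59, 2.79 and 2.44 CPM of LINC01705, all below the CLA18:2 libraries given above. Lower with CLA18:2 than with LA were LINC01554 at -1.40 ± 0.49 (adjusted p = 0.0268), LINC01776 at -0.98 ± 0.28 (adjusted p = 0.00663), LINC00472 at -0.66 ± 0.20 (adjusted p = 0.0112), LINC00511 at -0.59 ± 0.16 (adjusted p = 0.00332) and LINC00842 at -0.52 ± 0.11 (adjusted p = 0.000353). The call for LINC01554 was lost without LA replicates 1, 2 or 4 or CLA18:2 replicates 1 or 3 (adjusted p = 0.0523 to 0.079), and that for LINC00472 without LA replicate 2 or CLA18:2 replicate 1 (adjusted p = 0.0637 to 0.103). LINC00511 (chr17:72290091-72640472, minus strand), an RNA often studied in tumours, had 4.25, 5.15, 5.03 and 5.42 CPM with CLA18:2 and 7.996, 8.26, 6.28 and 7.25 CPM with LA, with no overlap. No difference between CLA18:2 and LA was called for LINC00565, at -0.14 ± 0.11 with a 95% interval of -0.36 to 0.09, or for LINC02035, at -0.07 ± 0.16 with an interval of -0.39 to 0.25.

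Called higher than DMSO in 1 or more groups and lower in another were 3 RNAs. The share of such genes among all genes was not counted. Of the 12 RNAs called with LA alone, 10 were called in the same direction with CLA18:2 alone and 0 in the opposite direction. For these counts too, the share among all genes was not counted. LINC02009 had 0.996, 1.23, 0.973 and 1.11 CPM with RSL3+LA, below all DMSO libraries, a log2 change of -0.98 ± 0.26 (adjusted p = 0.0105), while CLA18:2, RSL3+CLA18:2 at 0.63 ± 0.24 (adjusted p = 0.0365) and CLA18:3 at 1.0002 ± 0.24 (adjusted p = 0.000986) were higher than DMSO. With LA alone LINC02009 differed from DMSO by -0.53 ± 0.25 (adjusted p = 0.249), without overlap of libraries, which did not pass the test. Its change with RSL3+CLA18:2 was not called without RSL3+CLA18:2 replicates 1 or 4 or DMSO replicates 1, 3 or 4, or without the low-count filter, or with the mitochondrial share as a covariate, or without RSL3+CLA18:2 libraries 3 and 4 together (adjusted p = 0.0638 to 0.136). LINC00707 (chr10:6779549-6879450, plus strand) had 3.38, 3.42, 3.11 and 2.44 CPM with LA, 1.99, 2.07, 3.43 and 3.597 CPM with RSL3+LA, 9.98, 7.37, 11.6 and 6.41 CPM with CLA18:3 and 4.78, 4.396, 5.89 and 6.64 CPM with DMSO. LA and RSL3+LA lay below DMSO and CLA18:3 overlapped it only at its lowest library. Its log2 changes were -0.81 ± 0.22 (adjusted p = 0.0167), -0.97 ± 0.23 (adjusted p = 0.0036) and 0.70 ± 0.21 (adjusted p = 0.00857), and that with LA was not called without LA replicate 4 or DMSO replicates 3 or 4 (adjusted p = 0.0517 to 0.0814), nor that with CLA18:3 without CLA18:3 replicate 3 (adjusted p = 0.0587). It shares 12.5% of its exon bases with AL392086.2 on the same strand. LINC01116 (chr2:176629589-176637931, minus strand), the second most abundant per length, had 36.7, 38.1, 38.3 and 36.9 CPM with CLA18:2, 46.04, 56.1, 52.7 and 44.2 CPM with RSL3+CLA18:2, 56.7, 57.7, 55.7 and 54.5 CPM with CLA18:3 and 50.05, 48.8, 47.3 and 44.9 CPM with DMSO. CLA18:2 lay wholly below DMSO, a log2 change of -0.35 ± 0.07 (adjusted p = 0.000116), and CLA18:3 wholly above it, a change of 0.23 ± 0.07 (adjusted p = 0.00752), at doses that differ. The change of LINC01116 with CLA18:3 was not called without DMSO replicate 4 (adjusted p = 0.0524). Its exons overlap those of LINC01117 on the other strand over 12.5% of their length.

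RSL3 added to CLA18:2 altered 11 RNAs relative to CLA18:2 alone, with 3 higher and 8 lower, or 8.15% against 11.9% of all genes (6.65% higher and 5.24% lower), while RSL3 added to LA altered 0, against 0.049%. For the LA pair 5 RNAs had an unadjusted p under 0.05, and DESeq2 called 0. LINC00205 showed the clearest of these differences. It (chr21:45288050-45297806, plus strand) starts 152 bases from POFUT2, an O-fucosyltransferase gene, on the opposite strand, and had 25.6, 26.4, 27.98 and 24.9 CPM with RSL3+CLA18:2, 37.2, 33.6, 34.9 and 31.3 CPM with RSL3, 37.4, 41.4, 38.7 and 39.3 CPM with CLA18:2 and 39.9, 37.02, 39.4 and 36.5 CPM with DMSO. The RSL3+CLA18:2 libraries lay below those of RSL3, CLA18:2 and DMSO, and the CLA18:2 libraries overlapped DMSO. RSL3+CLA18:2 differed from CLA18:2 by -0.58 ± 0.07 (adjusted p = 1.18e-06) and from DMSO by -0.54 ± 0.07 (adjusted p = 2.84e-07), while CLA18:2 alone gave 0.04 ± 0.07 (adjusted p = 0.732) and RSL3 alone -0.16 ± 0.07 (adjusted p = 0.779). The change on adding RSL3 was more negative with CLA18:2 than with vehicle by -0.42 ± 0.10 (adjusted p = 0.0154) on the log2 scale, the only such interaction called among the 135, or 0.741% against 3.55% of all genes. The interaction with LA was called for 0, against 0.0245%, with 4 at an unadjusted p under 0.05 and 0 by DESeq2. CLA18:3, with 28.4, 31.3, 26.7 and 25.7 CPM, also lay below DMSO, at -0.45 ± 0.07 (adjusted p = 8.83e-06), and overlapped RSL3+CLA18:2. The neighbour POFUT2 differed from DMSO by -0.04 ± 0.06 (adjusted p = 0.714) with RSL3+CLA18:2 and rose by 0.32 ± 0.06 (adjusted p = 7.64e-05) with CLA18:2.

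LINC01116 was higher with RSL3+CLA18:2 than with CLA18:2 by 0.41 ± 0.07 (adjusted p = 0.000116), with no overlap, and the RSL3+CLA18:2 libraries overlapped DMSO. LINC01963 (chr2:216217045-216220192, plus strand) had 20.6, 19.6, 16.9 and 17.4 CPM with RSL3+CLA18:2 and 16, 14.7, 14.3 and 12.4 CPM with CLA18:2, without overlap, a difference of 0.37 ± 0.11 (adjusted p = 0.0237). The most abundant RNA, LINC01029, had 262, 262, 280 and 273 CPM with RSL3+CLA18:2, 244, 248, 240 and 238 CPM with CLA18:2 and 334, 307, 303 and 328 CPM with DMSO. Every CLA18:2 library was below every RSL3+CLA18:2 library, and these were below DMSO. CLA18:2 differed from DMSO by -0.39 ± 0.04 (adjusted p = 1.84e-09), RSL3+CLA18:2 by -0.24 ± 0.04 (adjusted p = 2.35e-05) and CLA18:3 by -0.21 ± 0.04 (adjusted p = 0.000127), and RSL3+CLA18:2 differed from CLA18:2 by 0.15 ± 0.04 (adjusted p = 0.0143). Besides LINC00205 and LINC00520, lower with RSL3+CLA18:2 than with CLA18:2 were LINC00630 at -0.70 ± 0.20 (adjusted p = 0.0202), LINC00888 at -0.30 ± 0.09 (adjusted p = 0.016) and LINC01605 at -0.26 ± 0.07 (adjusted p = 0.0165).

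Several of these calls were lost when libraries were left out. Without RSL3+CLA18:2 libraries 3 and 4, the pair of that group with the fewest genes detected, 5 RNAs were called against 11 with all libraries, and 7 were called without CLA18:2 replicate 2, without CLA18:2 replicate 3 or without RSL3+CLA18:2 replicate 4. Such fits have fewer libraries, and the share of all genes called in them is not given here. The lower counts are thus not shown to be particular to LINC RNAs. The calls of LINC00205, LINC00520 and LINC01116 were kept on leaving out any of these libraries. That of LINC01963 was lost without CLA18:2 replicates 3 or 4 or RSL3+CLA18:2 replicates 1 or 2 (adjusted p = 0.0554 to 0.107), that of LINC01029 without CLA18:2 replicate 4 or RSL3+CLA18:2 replicates 3 or 4, or without the low-count filter, or without RSL3+CLA18:2 libraries 3 and 4 together (adjusted p = 0.0522 to 0.231), that of LINC00630 without CLA18:2 replicates 1 or 3 or RSL3+CLA18:2 replicates 3 or 4, or without RSL3+CLA18:2 libraries 3 and 4 together (adjusted p = 0.052 to 0.179), that of LINC00888 without CLA18:2 replicate 1, or without the low-count filter, or without RSL3+CLA18:2 libraries 3 and 4 together (adjusted p = 0.054 to 0.0821) and that of LINC01605 without CLA18:2 replicate 2 or RSL3+CLA18:2 replicate 4, or without RSL3+CLA18:2 libraries 3 and 4 together (adjusted p = 0.054 to 0.0662).

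With RSL3+CLA18:2 against DMSO, RNAs near the limit of detection were among the larger falls. LINC01311 (chr22:19171395-19172839, plus strand) had 0.863, 1.401, 1.099 and 0.3601 CPM with RSL3+CLA18:2 and 2.05, 3.79, 3.01 and 2.79 CPM with DMSO, a log2 change of -1.65 ± 0.36 (adjusted p = 0.000361). LINC00942 (chr12:1500525-1504424, plus strand) had 0.633, 0.539, 0.0458 and 0.675 CPM with RSL3+CLA18:2 and 1.95, 1.296, 0.946 and 1.17 CPM with DMSO, a description only, since its place among the 135 rests on DMSO. LINC01164 (chr10:131772398-131790199, minus strand) had 0.921, 0.701, 0.0916 and 0.8103 CPM with RSL3+CLA18:2 and 1.73, 2.08, 1.29 and 1.56 CPM with DMSO, a change of -1.41 ± 0.53 (adjusted p = 0.0372). LINC01311 and LINC01164 did not overlap DMSO, and in LINC00942 and LINC01164 replicate 3 was far under the other RSL3+CLA18:2 libraries. The call of LINC01164 was lost without RSL3+CLA18:2 replicates 2 or 3 or DMSO replicates 1, 2 or 4, or with the mitochondrial share as a covariate, or without RSL3+CLA18:2 libraries 3 and 4 together (adjusted p = 0.054 to 0.227). LINC01963 rose with RSL3+CLA18:2 against DMSO, at 0.65 ± 0.11 (adjusted p = 1.75e-05).

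Among the RNAs lower with CLA18:3, at 5 µM, were LINC01882, LINC00472, LINC00842, LINC00205 and LINC01029, as given above, and also LINC01089 and LINC01547. LINC01424 (chr21:44802577-44804717, plus strand), which starts 558 bases from the ubiquitin-conjugating enzyme gene UBE2G2, had 0.489, 0.485, 0.925 and 0.864 CPM with CLA18:3 and 1.95, 1.805, 1.85 and 2.06 CPM with DMSO. LINC01547 (chr21:44932814-44939913, minus strand), 128097 bases from it, had 4.94, 5.28, 3.48 and 4.14 CPM with CLA18:3 and 7.41, 8.84, 8.897 and 9.26 CPM with DMSO. Neither overlapped DMSO. The log2 change of LINC01547 was -0.94 ± 0.17 (adjusted p = 5.15e-05) with CLA18:3 and -0.74 ± 0.17 (adjusted p = 0.000729) with CLA18:2, while the values of LINC01424 are a description only, since its place among the 135 rests on DMSO. LINC01089 (chr12:121795267-121803906, minus strand) had 0.8802, 0.339, 1.31 and 1.91 CPM with CLA18:3 and 2.31, 2.82, 2.58 and 2.399 CPM with DMSO, a change of -1.18 ± 0.33 (adjusted p = 0.005) without overlap, but 48.7% of its exon bases are shared with AC084018.2 on the other strand. LINC00668 (chr18:6919496-6929966, minus strand) was higher, with 3.28, 3.97, 3.43 and 5.32 CPM with CLA18:3 and 2.68, 2.45, 3.09 and 2.12 CPM with DMSO. The groups did not overlap, at 0.63 ± 0.23 (adjusted p = 0.0352), and the call was lost without CLA18:3 replicates 2 or 4 or DMSO replicates 1, 2 or 4, or without the low-count filter (adjusted p = 0.0553 to 0.17).

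With RSL3+LA against DMSO, LINC01711 (chr20:58634772-58635738, plus strand) was higher, with 23.95, 20.9, 24.5 and 22.3 CPM against 19.3, 15.96, 17.5 and 20.4 CPM with DMSO. The libraries did not overlap, at a log2 change of 0.33 ± 0.10 (adjusted p = 0.0351), and the call was lost without RSL3+LA replicates 1, 3 or 4 or DMSO replicates 1, 2 or 3 (adjusted p = 0.0523 to 0.176).

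Each RNA was set beside its nearest tested protein-coding gene. With CLA18:2, 59 of the 135 neighbours passed the test, or 43.7% against 38.8% of all genes. In 24 pairs both the RNA and its neighbour did, which is 54.5% of the RNAs called and 40.7% of the neighbours called, 16 in the same direction and 8 in opposite directions. Across the 135 pairs Pearson's r between the log2 changes was 0.18, a description over pairs that come from the same libraries. With RSL3+CLA18:2 both changed in 14 pairs, 10 in the same direction, so that 35.0% of the RNAs called had a called neighbour, against 37.8% of all 135. With CLA18:3 both changed in 13 pairs, 10 in the same direction, or 39.4% of the RNAs called, against 40.0% of all 135. A neighbour was thus called about as often beside a changed RNA as beside any of the 135 in these 2 comparisons. NQO2, beside LINC01011, changed by 1.46 ± 0.10 (adjusted p = 1.41e-14) with CLA18:2. MCF2L2, 18830 bases from LINC00888, changed by 2.05 ± 0.28 (adjusted p = 2.02e-07), and DUSP10, a phosphatase gene 299529 bases from LINC01705, by 0.62 ± 0.08 (adjusted p = 4.95e-08). ITGB2, an integrin gene 825 bases from LINC01547, changed by -1.15 ± 0.17 (adjusted p = 1.02e-06). In the opposite direction to its LINC RNA, ANXA3, an annexin gene 35452 bases from LINC01094, changed by -1.23 ± 0.08 (adjusted p = 5.45e-15). PLA2G4A, which encodes a phospholipase that releases arachidonic acid, rose by 1.27 ± 0.27 (adjusted p = 0.000295), while LINC01036, 81719 bases away, changed by -0.78 ± 0.16 (adjusted p = 0.000139). KTN1, 79606 bases from LINC00520, changed by 0.32 ± 0.06 (adjusted p = 2.59e-05), while ELL2, 24965 bases from LINC01554, differed by 0.06 ± 0.05 (adjusted p = 0.324).

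**Figure D4:**
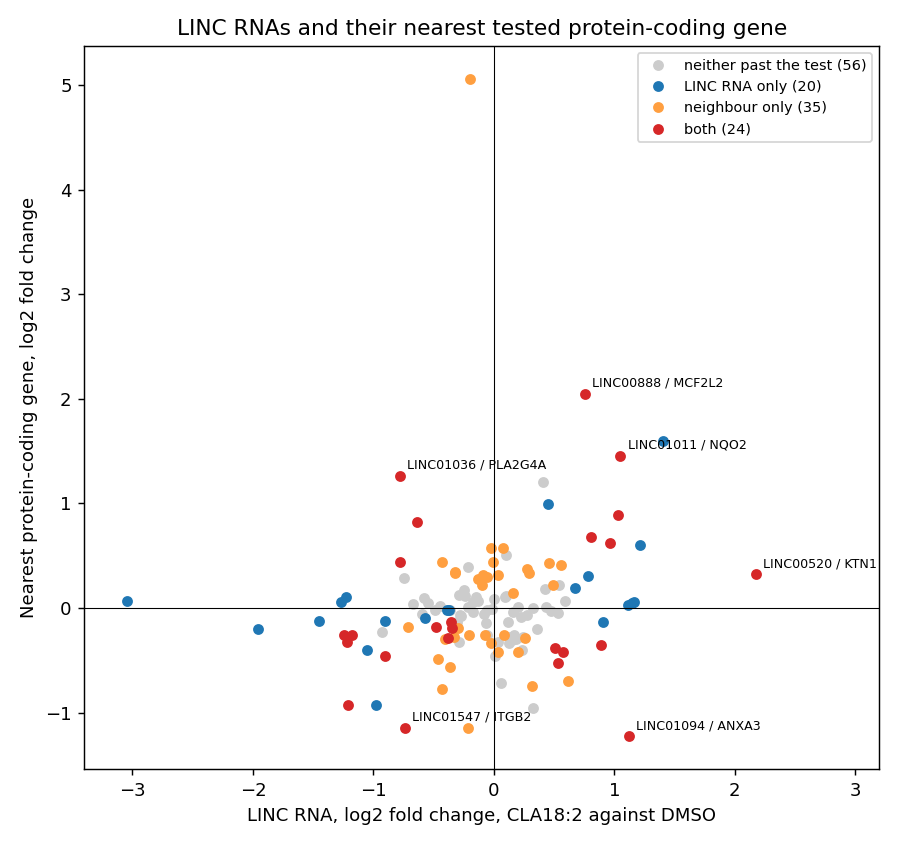
Log2 fold change with CLA18:2 against DMSO of each LINC RNA (horizontal) and of its nearest tested protein-coding gene (vertical), coloured by which of them passed an adjusted p of 0.05. Both passed in 24 pairs, the LINC RNA only in 20, the neighbour only in 35 and neither in 56; LINC00520 lies far to the right with a neighbour changed by 0.32.

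Other long noncoding RNAs were counted beside the LINC RNAs. Of 24 host genes of small nucleolar RNAs, 14 fell and 1 rose with CLA18:2, or 62.5% called against 38.8% of all genes, with a median log2 change of -0.49 against -0.02. With LA 6 fell and 0 rose, or 25% against 8.32%, but with RSL3+LA 1 fell and 0 rose, or 4.17% against 10.2%. With RSL3+CLA18:2 15 fell and 0 rose, or 62.5% against 35.2%. With CLA18:3 4 fell and 4 rose, or 33.3% against 35.9%. SNHG7 changed by -0.80 ± 0.07 (adjusted p = 1.5e-11) and SNHG1 by -0.89 ± 0.09 (adjusted p = 7.77e-10) with CLA18:2. Of 257 antisense RNAs, 54 fell and 21 rose with CLA18:2, or 29.2%, under the share among all genes, among them DLGAP1-AS2 at 2.12 ± 0.18 (adjusted p = 1.13e-11). NECTIN3-AS1 changed by -1.42 ± 0.16 (adjusted p = 4.75e-08) and RAB11B-AS1 by 1.84 ± 0.20 (adjusted p = 3.19e-08) with LA. Without a stated strand setting, reads of an antisense RNA and of the gene it overlaps cannot be told apart. Of 24 microRNA host genes, 7 fell and 2 rose with CLA18:2, or 37.5%, with MIR1915HG at -1.75 ± 0.19 (adjusted p = 1.44e-09). Of 16 other named long noncoding RNAs, 3 rose and 4 fell with CLA18:2, or 43.8%, both near the share among all genes. LUCAT1, a stress-responsive RNA linked to NRF2, rose by 3.06 ± 0.20 (adjusted p = 1.77e-14) with CLA18:2, by 2.52 ± 0.21 (adjusted p = 3.71e-12) with RSL3+CLA18:2 and by 1.80 ± 0.21 (adjusted p = 1.63e-08) with CLA18:3. It also rose by 0.90 ± 0.22 (adjusted p = 0.00531) with LA and by 1.06 ± 0.22 (adjusted p = 0.000684) with RSL3+LA. NORAD, which binds Pumilio proteins, rose by 0.63 ± 0.05 (adjusted p = 4.67e-12) with CLA18:2. For comparison, the 135 LINC RNAs had a median of -0.05 with CLA18:2.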

How the data were processed

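RNA of 28 HT-1080 cultures was sequenced in pairs of 150 bases, per the labels. The deposited files hold the authors' raw gene counts, 1 column per library. HISAT, SAMtools, featureCounts and DESeq2 with the build hg38 are named in the submitters' processing notes. Versions, annotation and strand setting are not given in the sources used here. The labels give the acids in mM and the design text in µM, which is used here.

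Counts were fitted with edgeR 4.0.16 (R 4.3.3), with TMM scaling, filterByExpr, a mean per group over 28 libraries (21 residual degrees of freedom) and its quasi-likelihood test; p-values were adjusted after Benjamini and Hochberg over 16325 genes, at 0.05. CPM use the library total times the TMM factor. Standard errors were taken as the log2 change over the root of its F statistic. An interaction is the effect of RSL3 with an acid minus its effect in vehicle. The fit was tested on simulated data. DESeq2 1.42.0 was an alternative. Annotation was GENCODE 29, with 122 symbols matched by name and 13 by gene ID, and RefSeq. Named RNAs were the 10 most abundant, and up to 5 each way per comparison with the largest called changes and no overlap between groups, with LINC01036 added after its values were seen. The LINC RNAs, the other lists and the motifs were chosen with earlier results of these data known. Sequences on chromosome 8 were not printed.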

Additional observations from a re-analysis of the deposited data

Results flagged for a closer look

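In 5 of 99 groups of 4 libraries examined, a single library stood apart from the other 3 by more than Dixon's 95% critical value, where chance gives about 1 in 20. LINC02604 had 2.68 CPM in DMSO replicate 4, against 1.52 to 1.63 CPM in the other DMSO libraries. LINC00472 had 4.12 CPM in RSL3+CLA18:2 replicate 3, against 2.43 to 2.71 CPM in the others of that group, and 5.04 CPM in CLA18:3 replicate 2, against 3.23 to 3.37 CPM. LINC02864 had 12.3 CPM in LA replicate 3, against 14.4 to 14.7 CPM. LINC00630 had 4.31 CPM in RSL3+CLA18:2 replicate 2, against 3.06 to 3.22 CPM. The effect of RSL3 on LINC00205 differed between CLA18:2 and vehicle by -0.42 on the log2 scale in the test of the interaction (adjusted p = 0.0154), and this was called in all of its 23 alternatives.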

How the results depend on the processing

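Of 130 called changes of named RNAs, 95 were called under every alternative, 35 lost the call under at least 1 and 0 reversed. Of these, 34 lost it on leaving out a library, 11 without the low-count filter, 4 with the mitochondrial share as a covariate, 3 with only the groups compared, and 0 with DESeq2, other size factors or the replicate block. Fitting only the groups compared gave 19 LINC RNAs with LA against 12, and 20 with RSL3+LA against 12, and the cause was not tested. Without RSL3+CLA18:2 libraries 3 and 4, a choice made after seeing the data, 5 RNAs differed between RSL3+CLA18:2 and CLA18:2, against 11, with fewer samples. Shares of all genes called are not given for fits that leave out libraries or use the block. Their counts are thus not shown to be particular to LINC RNAs. Leaving out 1 library gave 55 to 63 RNAs across the 7 groups, 0 with RSL3, 7 to 12 with LA, 37 to 43 with CLA18:2, 9 to 12 with RSL3+LA, 35 to 40 with RSL3+CLA18:2, 27 to 35 with CLA18:3, 26 to 30 for CLA18:2 against LA, 0 for RSL3+LA against LA, 7 to 12 for RSL3+CLA18:2 against CLA18:2, 0 for the interaction with LA and 1 for that with CLA18:2.

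The replicate numbers gave no sign of pairing: of 84 correlations of same-numbered libraries, the lowest was -0.159, the median 0.00553 and the highest 0.178, and 0 of 21 pairs of groups had all above 0.1. With the replicate number as a block, the counts were 62 across the 7 groups, 12 with LA, 46 with CLA18:2, 14 with RSL3+LA, 40 with RSL3+CLA18:2, 33 with CLA18:3, 34 for CLA18:2 against LA and 11 for RSL3+CLA18:2 against CLA18:2.

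Depth limits the 84 RNAs under 5 CPM most. A p above the threshold does not show that their levels were alike.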
